A study of Homo sapiens with 4 samples.

Results

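A set of 44 genes that build and drive the mitotic spindle, separate the chromosomes and divide the cell was followed in Kasumi-1, an acute myeloid leukemia (AML) cell line, after knockdown of ANP32B. The set is a list of gene names, grouped by the known roles of their products. All 44 were found among the 18567 genes of the deposited table, and all 44 reached the minimum of at least 1 TPM in 2 of the 4 samples, as did 16817 genes in all. By role they fall into 5 mitotic kinases, 12 mitotic kinesins, 13 spindle assembly and microtubule factors, 3 chromosomal passenger subunits, 6 cytokinesis factors and 5 anaphase regulators.

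RNA sequencing was carried out on 2 control samples, NC replicates 1 and 2, and on 2 samples with ANP32B knockdown, sh-ANP32B replicates 1 and 2. According to the labels the NC samples carry no shRNA and had no treatment, whereas the study's methods speak of a control hairpin delivered by lentivirus and selection with puromycin, so that the hairpin, the infection and the selection cannot be told apart from the knockdown if the labels are right. Neither source says which of the study's hairpins against ANP32B was used, whether the cells were a pool or a clone, or whether the replicates were separate cultures, and the p-values below measure only the spread between these samples. The values are TPM, a unit of transcript abundance that scales the reads of a gene by transcript length and by the total of the sample, so that the sequencing depth is unknown and a level is a share of the sample.

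ANP32B (ENSG00000136938) was examined first, since it checks the labels. It was at 383.8 and 392 TPM in NC against 51.8 and 41.2 TPM after knockdown. Both knockdown samples lay far below both controls, at 11.99% of the NC mean (log2 fold change -3.04, SE 0.150, adjusted limma p 0.00516). The AML label was checked on 8 blast markers, of which 6 were in the table and CD34 and MPO were not analysed here. Their summed level was 446 to 471 TPM in NC and 539 to 610 TPM in sh-ANP32B, with the transcription factors RUNX1 and SPI1 above 120 TPM in every sample, RUNX1T1 at 15.6 to 31.2 TPM, and KIT at only 1.55 to 3.41 TPM. CD38 was the 1 of the 6 with a negative fold change. It was at 8.19 and 8.26 TPM in NC against 5.10 and 4.15 TPM after knockdown (log2 fold change -0.72, adjusted limma p 0.120). Markers of other cell types were low, but some moved with the groups. The 5 B-lymphoid markers in the table summed to 14.6 and 19.1 TPM in NC against 9.02 and 10.7 TPM after knockdown, with 0 called by limma and 2 lower at an unadjusted p under 0.05. The 2 T-lymphoid markers in the table, CD2 and TRAC, went opposite ways. CD2 was called higher, from 1.65 and 1.57 TPM in NC to 9.48 and 9.25 TPM after knockdown (log2 fold change 1.99, adjusted limma p 0.0261). TRAC, too low to be tested, was at 1.32 and 0.829 TPM in NC against 0.293 and 0.178 TPM after knockdown. Their sum was 2.97 and 2.40 TPM in NC against 9.78 and 9.43 TPM after knockdown, where it was mostly CD2. The part of these markers in the levels of the spindle genes was not tested. The 1 erythroid marker in the table lay at 0.233 to 2.24 TPM, and 0 of the 8 fibroblast and epithelial markers were in the table. Transcripts of 37 mitochondrial genes made up 12.95% and 13.1% of TPM in NC replicates 1 and 2, against 11.4% and 8.43% after knockdown.

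The spindle is an array of microtubules that is built anew at each cell division. Aurora and Polo-like kinases switch its assembly on, kinesins walk along or take apart its microtubules, and the anaphase-promoting complex (APC/C), a ubiquitin ligase, ends mitosis by marking securin and the cyclins for destruction, whereupon separase cuts the cohesin that holds sister chromatids together. A contractile ring guided by the central spindle then divides the cell. Many of these genes are transcribed mainly in late S phase, G2 and mitosis, and are therefore abundant in dividing cells such as leukemia lines and scarce in resting ones. In a bulk RNA sample, fewer cells in mitosis and less RNA of these genes per cell cannot be told apart.

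The promoters of such genes are known to carry a short element called the cell cycle genes homology region (CHR), through which the MuvB complex with its partners B-MYB, FOXM1 and the pocket proteins acts, often near CCAAT boxes bound by NF-Y. The sequences shown here are those of the 4 members with the most negative fold change among the members whose promoter holds the CHR letters, and of ANLN, the member with the smallest absolute fold change among those with a promoter listed. They come from RefSeq (GRCh38.p14), run from 170 bases before the transcription start to 30 bases after it, and are written 5′ to 3′ on the plus strand. The letters TTTGAA or TTCGAA (CHR) and CCAAT, on either strand, are in capitals.
ESPL1: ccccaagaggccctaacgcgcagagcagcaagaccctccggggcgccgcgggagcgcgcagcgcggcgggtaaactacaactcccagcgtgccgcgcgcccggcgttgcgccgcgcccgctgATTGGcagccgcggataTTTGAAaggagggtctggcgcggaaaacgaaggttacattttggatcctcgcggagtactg
KIF4A: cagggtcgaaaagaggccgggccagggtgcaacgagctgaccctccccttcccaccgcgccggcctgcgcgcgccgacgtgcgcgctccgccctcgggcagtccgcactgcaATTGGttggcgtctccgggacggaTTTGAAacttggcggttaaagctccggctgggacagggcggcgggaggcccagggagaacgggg
KIF15: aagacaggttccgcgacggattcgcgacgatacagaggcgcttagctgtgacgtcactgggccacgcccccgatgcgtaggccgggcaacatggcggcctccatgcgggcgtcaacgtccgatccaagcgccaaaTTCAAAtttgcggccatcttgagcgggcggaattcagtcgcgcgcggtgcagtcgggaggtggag
INCENP: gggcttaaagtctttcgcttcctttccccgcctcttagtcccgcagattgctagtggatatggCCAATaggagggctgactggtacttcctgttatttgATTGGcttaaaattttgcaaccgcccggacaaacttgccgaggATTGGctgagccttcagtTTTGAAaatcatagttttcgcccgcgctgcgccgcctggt
ANLN: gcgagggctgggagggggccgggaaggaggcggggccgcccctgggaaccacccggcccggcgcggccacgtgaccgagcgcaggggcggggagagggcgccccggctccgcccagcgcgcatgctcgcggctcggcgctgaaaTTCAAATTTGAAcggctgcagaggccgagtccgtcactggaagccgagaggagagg
The stretches lie at chr12:53268129-53268328 (ESPL1), chrX:70289934-70290133 (KIF4A), chr3:44761624-44761823 (KIF15), chr11:62123841-62124040 (INCENP) and chr7:36389692-36389891 (ANLN). In ESPL1 and KIF4A the CHR letters begin 31 and 34 bases before the start with a CCAAT box, read on the minus strand, just upstream at 48 and 58 bases before it. In ANLN the letters occur on both strands, beginning 26 and 20 bases before the start, and no CCAAT letters stand in the window. The first 4 promoters were chosen for holding the CHR letters, so they cannot show how the letters go with fold change, which was not tested. KNSTRN, almost level with ESPL1 in fold change, had neither the CHR nor the CCAAT letters.

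Over the whole set, 39 of the 44 members had a promoter in the RefSeq table, 46 promoters in all since some genes have several starts. Windows of 300 bases, from 250 before to 50 after the start, were searched on both strands. The CHR letters were found in 31 of the 46 member promoters (67.4%) against 16.4% of all 35116 promoters and 12.0% of the 14247 promoters of genes tested. The CCAAT letters were found in 71.7% of member promoters, against 34.6% of all promoters and 34.7% of those of genes tested, and both together in 52.2%, against 6.38% and 4.82%. Letters of E2F sites were found in 7 of the 46 member promoters (15.2%), against 7.21% of all promoters and 10.9% of those of genes tested, where the spelling TTTGGCG counted as well as the spelling TTTCCCG and that of TTTCGCG. Between 50 bases before and 50 after the start, the CHR letters stood in 54.3% of member promoters and 5.01% of all promoters. The 29 members with the CHR letters in a promoter had a median log2 fold change of -0.51 and the 10 members with a promoter but without the letters one of -0.44. A match of letters describes the sequence and shows no binding.

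Comparing sh-ANP32B with NC, 43 of the 44 members had a negative log2 fold change, whereas 42.1% of all genes tested did. The median over the members was -0.50, and the median over all genes tested was 0.0827. The middle portion of the members, between the lower and the upper quartile, spanned -0.62 to -0.39, against -0.20 to 0.37 for all genes. Expressed as TPM, the sh-ANP32B mean lay between 59.3% and 90.9% of the NC mean for the 43 genes with a negative fold change, and at 115.8% for FZR1. The summed level of the 44 genes was 5827 and 5866 TPM in NC against 4337 and 4035 TPM after knockdown.

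Few single genes passed the test. Limma, fitted on log2(TPM + 1) across all 16817 genes, gave an adjusted p under 0.05 for 3 members, ESPL1, KNSTRN and KIF4A, all lower, which is 6.82% of the members against 1.18% of all genes called lower. No member was called higher (0 of 44, also 0 at an unadjusted p under 0.05), against 2.14% of all genes. At an unadjusted p under 0.05, 34 members were lower, against 8.72% of all genes. The study's cutoffs, p under 0.05 and an absolute log2 fold change over 0.5, were set for DESeq2. Taken here on the unadjusted limma p, they gave 21 members lower, against 6.55% of all genes. In 40 members both sh-ANP32B values lay below both NC values, against 21.4% of all genes. The exceptions were ASPM, ANLN, ECT2 and FZR1. With 2 samples in each group, exact permutation of the labels can reach no two-sided p below 0.33, so that it was not used.

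**Figure D1:**
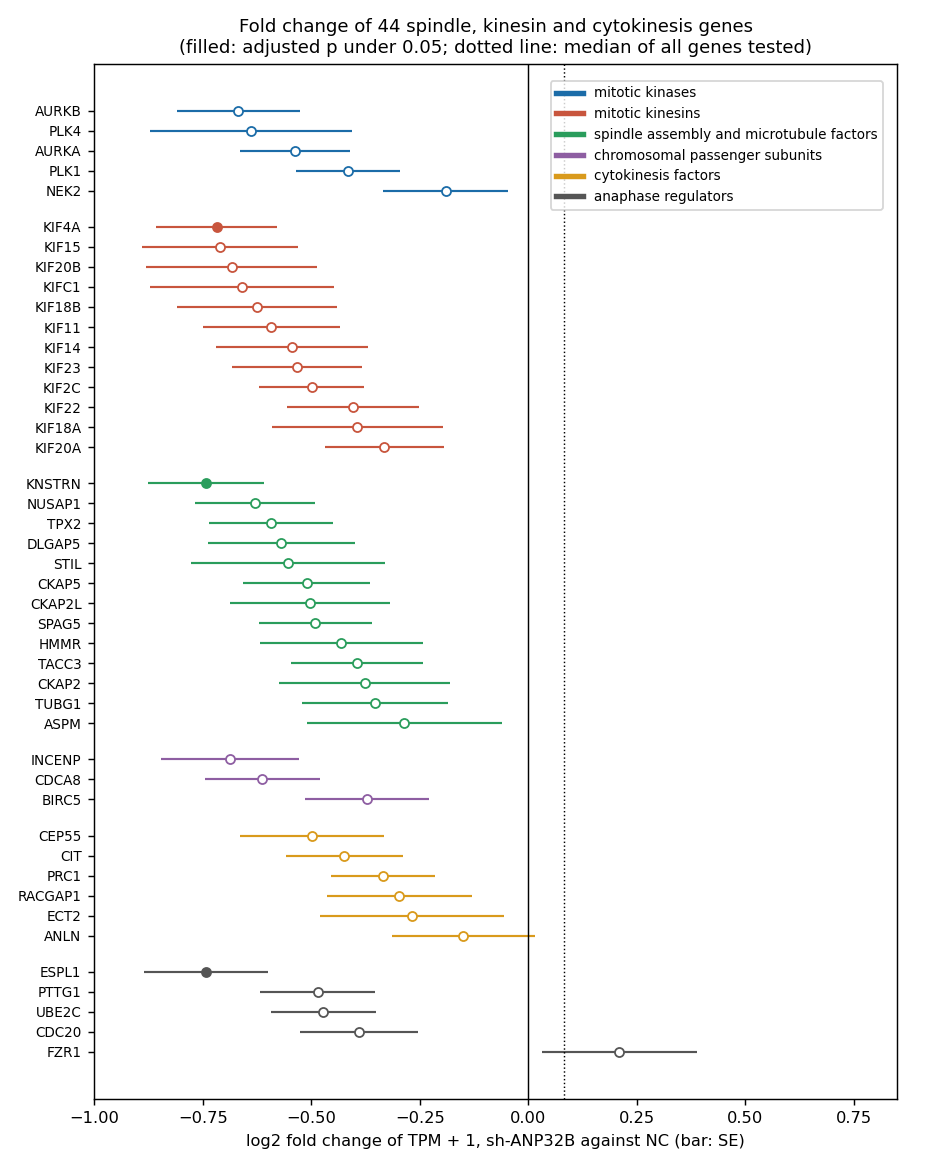
Log2 fold change of TPM + 1 in sh-ANP32B against NC for each of the 44 members, grouped by role, with bars for the standard error. Filled points, ESPL1, KNSTRN and KIF4A, have an adjusted p under 0.05, and every member except FZR1 lies left of 0, while the dotted line marks the median of all genes tested (0.0827).

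How many members were called depended on the spread assigned to the replicates. The 2 NC samples were nearly alike over the members, with a root mean square SD of 0.0815 log2 units, and the 2 sh-ANP32B samples were not, with 0.243 (0.273 and 0.356 over all genes). Without NC replicate 1 or without NC replicate 2 the spread came from the sh-ANP32B samples alone. There 0 members were called by limma, against only 0.476% and 0.351% of all genes called lower. So these fits called few genes lower, among the members or elsewhere. At an unadjusted p under 0.05, 8 and 9 members were lower in them, against 3.84% and 3.54% of all genes. Without sh-ANP32B replicate 1 the spread came from the NC samples and 39 were called (against 9.68% of all genes), and without sh-ANP32B replicate 2, 29 were called (against 8.47%). In these fits the lone sample of a group is assumed to vary like the other group. Without NC replicate 1 the SE was 0.315 for PLK1 and KIF2C and 0.314 for TPX2. It thus followed limma's abundance trend over all genes, and not the spread of each member's own sh-ANP32B replicates.

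How the sh-ANP32B replicates differed from each other went with base composition. Over the 44 members, replicate 2 minus replicate 1 had a Spearman rho of 0.906 with the GC content of the longest transcript, and over 15427 genes rho was 0.577, while between the NC replicates it was -0.719 over the members and -0.206 over all genes. These correlations are across genes that share the same libraries and only describe them. In the 22 members lower in GC (34.3% to 46.7%), sh-ANP32B replicate 1 differed from the NC mean by a median of -0.31 log2 units and replicate 2 by -0.68. In the 22 members higher in GC (46.8% to 63.8%), the medians were -0.48 and -0.46. So the medians of both knockdown samples were negative in either group of genes, and in the genes lower in GC replicate 2 lay further below the NC mean than replicate 1. This split was made after the values had been seen.

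**Figure D2:**
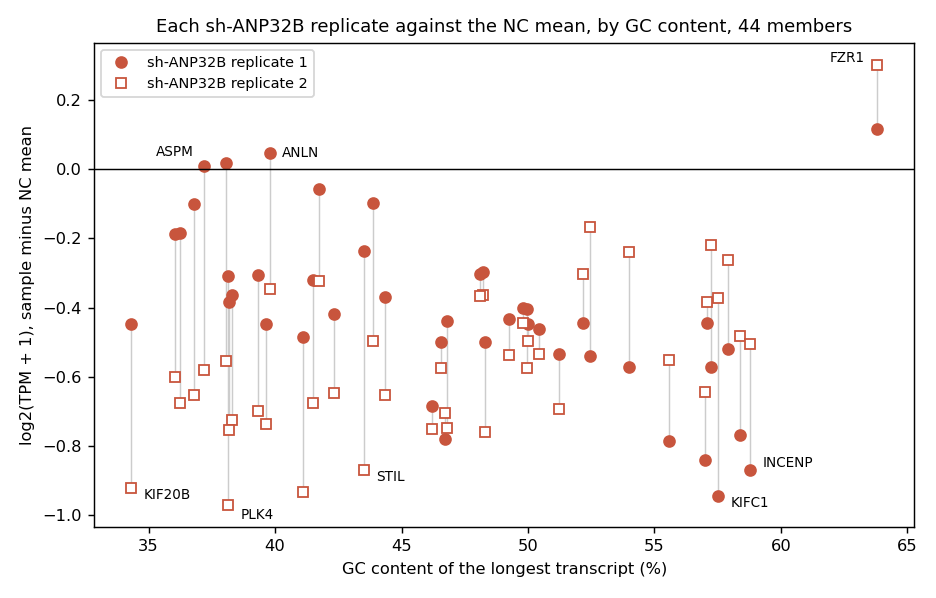
Log2(TPM + 1) of each sh-ANP32B replicate minus the NC mean (vertical axis) against GC content of the longest transcript in percent (horizontal axis) for the 44 members, with a grey line joining the replicates of a gene. Replicate 2 (open squares) lies below replicate 1 (filled circles) in 21 of the 22 members lower in GC and in 10 of the 22 higher in GC.

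PLK4 and KIFC1 show this in opposite ways. PLK4, the kinase that starts centriole duplication, has a transcript of 38.1% GC and differed from the NC mean by -0.31 log2 units in sh-ANP32B replicate 1 and by -0.97 in replicate 2. KIFC1, a minus-end directed kinesin that clusters centrosomes, has 57.5% GC and differed by -0.95 and -0.37. After a correction for GC content in each sample, 33 of the 44 members were called lower (against 6.64% of all genes) and the median over the members was -0.47, with the median of all genes at 0.0852. The 11 members not called after the correction were NEK2, KIF18A, KIF20A, ASPM, CKAP2, TUBG1, STIL, ANLN, ECT2, RACGAP1 and FZR1. The correction removes spread that follows GC content, and 3 of the 3 members called without it were among the 33.

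Among the kinases, 0 of 5 passed the adjusted threshold, with 4 lower at an unadjusted p under 0.05 (against 8.72% of all genes). PLK1, the Polo-like kinase that drives mitotic entry, centrosome maturation and cytokinesis, was at 260 and 251 TPM in NC against 187 and 196 TPM after knockdown. The groups did not overlap and the replicates lay close together, with a mean of 256 ± 6.77 TPM for NC against 192 ± 5.80 TPM for sh-ANP32B (SD, n = 2 each), or 74.9% of NC. This gave a log2 fold change of -0.42 (SE 0.119, adjusted limma p 0.103), and after GC correction it was -0.50 (adjusted limma p 0.0164, with a range of 0.00790 to 0.729 over all alternatives).

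AURKB, the catalytic subunit of the chromosomal passenger complex, had 62.9% of the NC mean and a log2 fold change of -0.67 (adjusted limma p 0.0577), and AURKA, which acts at spindle poles, had 68.7% and -0.54 (adjusted limma p 0.0711). PLK4 had a log2 fold change of -0.64 with an SE of 0.232. NEK2, which splits the centrosomes at mitotic entry, differed least among the kinases. It was at 122.5 and 118 TPM in NC against 115 and 95.7 TPM after knockdown, so that replicate 1 stood just below the controls (log2 fold change -0.19, adjusted limma p 0.471).

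All 12 mitotic kinesins had lower values in both sh-ANP32B samples than in both NC samples, against 21.4% of all genes. Their log2 fold changes ran from -0.72 to -0.33, with a median of -0.57. KIF4A, a chromokinesin that works with PRC1 on the central spindle, was the 1 kinesin called lower. It lies on chromosome X from 70290104 to 70420886 (hg38). Its level was 60.1 and 58.3 TPM in NC against 36.5 and 34.8 TPM after knockdown, a clear separation with little spread in either group. The mean fell to 60.1% of NC (log2 fold change -0.72, SE 0.139, adjusted limma p 0.0482). The adjusted p was close to the threshold and crossed it with a pseudocount of 0.1 (adjusted limma p 0.0524, with a range of 0.00216 to 0.378 over all alternatives). The call was also lost with robust variance in limma and without the abundance trend (adjusted limma p 0.051 and 0.124). KIF4A has a near-identical retrocopy, KIF4B, which was not analysed here, and reads of the latter may be counted in KIF4A.

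KIF2C, a kinesin that takes apart microtubules at centromeres, was the most abundant of the group. It had 273 and 259 TPM in NC against 193 and 183 TPM after knockdown, again without overlap, and a log2 fold change of -0.50 (SE 0.121, adjusted limma p 0.0736). KIF15 and KIF11, which push the spindle poles apart, had log2 fold changes of -0.71 and -0.59 (adjusted limma p 0.0801 and 0.0891). KIF20B, KIFC1, KIF18B, KIF14 and KIF23 ranged from -0.68 to -0.53. KIF22, a chromokinesin, and KIF18A, which dampens chromosome movement at the metaphase plate, were at -0.40 and -0.39.

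KIF20A, which delivers passenger proteins to the central spindle, differed least of the kinesins. It was at 72.9 and 66.2 TPM in NC against 56.3 and 53.7 TPM after knockdown. These values did not overlap, but the log2 fold change of -0.33 (SE 0.138) did not pass the test (adjusted limma p 0.207). Exons of KIF20A overlap those of BRD8 and CDC23 on the other strand over 3.43% and 1.92% of its exon bases, and no source says whether strand was used in counting.

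**Figure D3:**
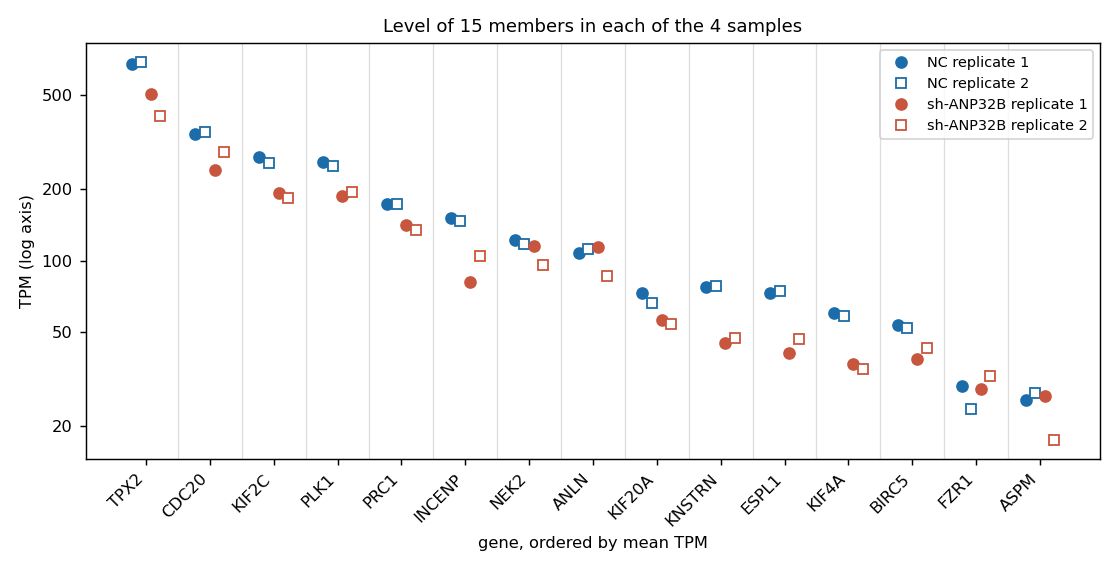
TPM on a log axis in NC replicates 1 and 2 and sh-ANP32B replicates 1 and 2 for 15 members, ordered by mean TPM. Both sh-ANP32B samples lie below both NC samples in all except ANLN, ASPM and FZR1, from TPX2 at 409 to 694 TPM down to BIRC5 at 38.5 to 53.7 TPM.

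Of the 13 spindle assembly and microtubule factors, 1 was called lower, and the median log2 fold change was -0.50. In 12 of them sh-ANP32B lay below NC without overlap, against 21.4% of all genes. KNSTRN, which anchors microtubules at kinetochores together with SPAG5, lies on chromosome 15 from 40382721 to 40394288 (hg38) and was the member with the lowest adjusted p of the 44. It had 77.0 and 78.3 TPM in NC against 44.8 and 47.3 TPM after knockdown. The replicates of each group were nearly equal and the mean fell to 59.3% of NC (log2 fold change -0.74, SE 0.133, adjusted limma p 0.0440, range 0.00205 to 0.347 over all alternatives). KNSTRN lost its call without the abundance trend (adjusted limma p 0.1215). Its partner SPAG5 had a log2 fold change of -0.49 (adjusted limma p 0.0891).

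TPX2, which activates AURKA and nucleates microtubules around chromosomes, was the most abundant of all 44 members. It was at 681 and 694 TPM in NC against 507 and 409 TPM after knockdown. Both knockdown samples were lower, replicate 2 more so, and the log2 fold change was -0.59 (SE 0.143, adjusted limma p 0.0736). In NC it was followed by CDC20 with 346 ± 5.04 TPM, by NUSAP1 with 312 ± 10.6 TPM and by TACC3 with 304 ± 10.8 TPM (SD, n = 2 each), where NUSAP1 and TACC3 did not differ beyond their spread. NUSAP1, which bundles microtubules, had a log2 fold change of -0.63 (adjusted limma p 0.0597), although it shares 81.4% of its exon bases with an overlapping annotated gene on the same strand, and its value is uncertain.

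The other members of this group ranged widely. DLGAP5, STIL, CKAP5 and CKAP2L had log2 fold changes from -0.57 to -0.50, HMMR, TACC3 and CKAP2 from -0.43 to -0.38, and TUBG1, the gamma-tubulin that seeds microtubules, was at -0.35. TUBG1 has a close copy, TUBG2, at 2.37 to 3.82 TPM against 44.4 to 65.7 TPM for TUBG1 itself. ASPM, which focuses spindle poles, differed least. It was at 25.8 and 27.6 TPM in NC, at 26.9 TPM in sh-ANP32B replicate 1 and at 17.5 TPM in replicate 2. The first of these knockdown samples lay between the controls and the other well below them, so that the log2 fold change of -0.29 (SE 0.224, adjusted limma p 0.490) was within the spread, and without sh-ANP32B replicate 2 it was 0.0086.

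The chromosomal passenger complex corrects faulty attachments of chromosomes and later directs cytokinesis. Of its non-catalytic subunits, 0 of 3 were called. All 3 had sh-ANP32B below NC without overlap (against 21.4% of all genes) and an unadjusted p under 0.05 (against 8.72%). INCENP, the scaffold, was at 152 and 147 TPM in NC against 81.2 and 105 TPM after knockdown. Replicate 1 was the lower of the knockdown samples here, and the log2 fold change was -0.69 (SE 0.159, adjusted limma p 0.0673, range 0.000929 to 0.380 over all alternatives). CDCA8, or borealin, had a log2 fold change of -0.61 (adjusted limma p 0.0586). BIRC5, or survivin, was at 53.7 and 51.8 TPM in NC against 38.5 and 42.6 TPM after knockdown, without overlap and with a log2 fold change of -0.37 (SE 0.143, adjusted limma p 0.182).

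The TPM of 10 pairs of genes whose products work together were also set against each other. In 6 pairs the ratios of the groups did not overlap and in 4 they did. With 2 samples in each group, even full separation can reach no two-sided exact permutation p below 0.33, so the count is weak. The ratio of AURKB to INCENP TPM was 1.56 and 1.44 in NC and 1.59 and 1.45 in sh-ANP32B, so that the groups overlapped. The ratio of TPX2 to AURKA likewise overlapped, with 5.47 and 5.86 in NC and 5.93 and 5.04 in sh-ANP32B. By contrast PRC1 to KIF4A was 2.89 and 2.99 in NC and 3.86 and 3.88 in sh-ANP32B, with the groups further apart than the samples within either. The ratio of KIF23 to RACGAP1 was 0.573 and 0.580 in NC and 0.460 and 0.517 in sh-ANP32B, and that of PTTG1 to ESPL1 was 3.16 and 3.56 in NC and 4.49 and 3.63 in sh-ANP32B, again without overlap. CDCA8 to BIRC5, KNSTRN to SPAG5 and CDC20 to FZR1 did not overlap either. These ratios were chosen after the values had been seen and were not tested.

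The cytokinesis factors had a median log2 fold change of -0.32, the least negative among the role groups, with 0 of 6 called. At an unadjusted p under 0.05, 3 were lower (against 8.72% of all genes), and 4 were lower without overlap of the groups (against 21.4%). PRC1, which bundles the microtubules of the central spindle, was at 173.98 and 174.1 TPM in NC against 141 and 135 TPM after knockdown. The NC values were almost identical and both knockdown values lay below them, with a log2 fold change of -0.33 (SE 0.121, adjusted limma p 0.162). PRC1 shares 57.6% of its exon bases with another annotated gene on its own strand, so that its level is uncertain.

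ANLN, or anillin, the scaffold of the contractile ring, had the smallest absolute fold change of all 44 members. It was at 108 and 112 TPM in NC, at 114 TPM in sh-ANP32B replicate 1 and at 86.3 TPM in replicate 2. The knockdown samples lay on either side of the controls, and the log2 fold change was -0.15 (SE 0.165, adjusted limma p 0.638). ECT2, which activates RhoA at the cell equator, and RACGAP1, which forms centralspindlin with KIF23 and recruits ECT2, had log2 fold changes of -0.27 and -0.30 (adjusted limma p 0.493 and 0.334). For ANLN and ECT2, as for ASPM, sh-ANP32B replicate 1 stood 0.048, 0.019 and 0.0086 log2 units above the NC mean. CEP55, needed for abscission, was at -0.50 and CIT, or citron kinase, at -0.42 (adjusted limma p 0.136 and 0.126).

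Of the anaphase regulators, 1 of 5 was called lower. ESPL1, or separase, the protease that cuts cohesin at anaphase, lies on chromosome 12 from 53268299 to 53293638 (hg38) and had the most negative fold change of the 44 members, with KNSTRN almost level with it. It was at 73.1 and 74.4 TPM in NC against 40.8 and 46.8 TPM after knockdown. Both knockdown samples were well below the controls and the mean fell to 59.4% of NC (log2 fold change -0.74, SE 0.143, adjusted limma p 0.0482). Like that of KIF4A, this p crossed the threshold with a pseudocount of 0.1 (adjusted limma p 0.0526, range 0.00182 to 0.349 over all alternatives). ESPL1 also lost its call with robust variance in limma and without the abundance trend (adjusted limma p 0.0511 and 0.129). PTTG1, or securin, which holds separase inactive, had a log2 fold change of -0.48 (adjusted limma p 0.0944), and it has near-identical copies with which it may share reads. UBE2C, the ubiquitin-conjugating enzyme that serves the APC/C, was at -0.47 (adjusted limma p 0.0818).

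The remaining members are the activators of the APC/C. CDC20, which acts in early mitosis, was at 343 and 350 TPM in NC against 241 and 289 TPM after knockdown, without overlap (log2 fold change -0.39, SE 0.136, adjusted limma p 0.152). FZR1, or CDH1, which takes over from late mitosis into G1, was at 29.4 and 23.6 TPM in NC against 28.6 and 32.7 TPM after knockdown. The FZR1 values of the groups overlapped, and its log2 fold change of 0.21 (SE 0.178, adjusted limma p 0.525) was positive in all 16 alternative fits. The ratio of CDC20 to FZR1 TPM was 11.7 and 14.8 in NC and 8.42 and 8.83 in sh-ANP32B, so that the groups did not overlap, although the difference was not tested. FZR1 has the highest GC content of the members, 63.8%, and after GC correction its log2 fold change was 0.055.

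Other genes of cell division, from lists of known parts of the machinery, were placed beside the members. Among 26 genes of the kinetochore and spindle checkpoint, 25 had a negative log2 fold change, 5 were called lower and 0 higher, and the median was -0.65. The 5 were CENPH (-1.19), ZWINT (-1.003), SKA2 (-0.97), BUB1 (-0.84) and CENPM (-0.81). Of 19 regulators of mitotic entry and of the MuvB complex tested, 18 had a negative fold change, 3 were called lower and 0 higher, and the median was -0.47. The 3 were CDC25A (-0.97), a phosphatase that activates cyclin-dependent kinases, and MYBL2 (-0.83) and FOXM1 (-0.80), the transcription factors that act on mitotic promoters. Of 5 general markers of cycling cells, which include genes of S phase, 5 had a negative fold change, 3 were called lower and 0 higher, and the median was -0.90. MKI67, the proliferation antigen, was at 144 and 151 TPM in NC against 84.0 and 74.0 TPM after knockdown (log2 fold change -0.90, adjusted limma p 0.0354). PCNA, the sliding clamp of DNA replication, and MCM2, a subunit of the replicative helicase, were the other two called, with log2 fold changes of -0.95 each (adjusted limma p 0.0299 and 0.0348).

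Kinesins outside mitosis were examined in the same way. Of 20 kinesins and kinesin light chains of transport and other functions tested, 9 had a negative log2 fold change, 0 were called lower (1 at an unadjusted p under 0.05) and 1 higher (4 at an unadjusted p under 0.05), and the median was 0.0858, close to that of all genes. The 1 called was KLC4, a kinesin light chain, at 40.6 and 40.5 TPM in NC against 67.2 and 70.8 TPM after knockdown (log2 fold change 0.75, adjusted limma p 0.0441). Of 14 core subunits of the APC/C, 8 had a negative fold change, 0 were called lower (2 at an unadjusted p under 0.05) or higher (2 at an unadjusted p under 0.05), and the median was -0.055, against -0.47 for the 5 anaphase regulators among the members. UBE2S, a ubiquitin-conjugating enzyme that works with the complex and is no subunit of it, had a log2 fold change of -0.48 (adjusted limma p 0.149). Differences between the lists were not tested.

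**Figure D4:**
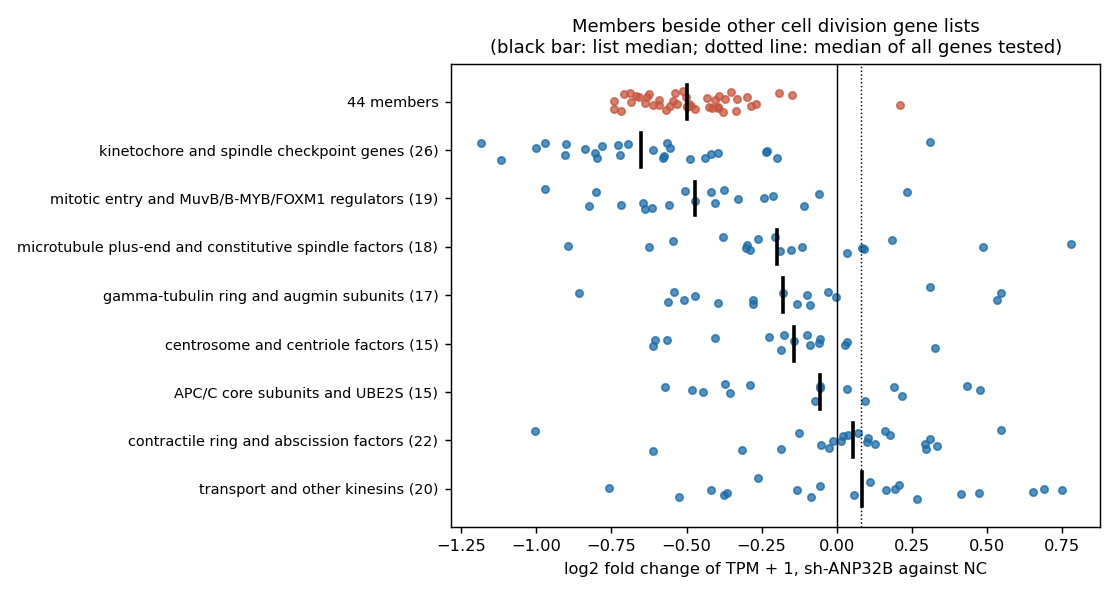
Log2 fold change of TPM + 1 in sh-ANP32B against NC (horizontal axis) for the 44 members and for 8 other lists of cell division genes (number tested in brackets), 1 point per gene and a black bar at the list median. The members, the kinetochore list and the mitotic entry list have medians of -0.50, -0.65 and -0.47, while the transport kinesins lie around the dotted median of all genes.

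A list of 22 genes of myeloid maturation moved with the groups as well. Of the 19 tested, 7 were called higher (against 2.14% of all genes), among them LYZ, CSF3R and TYROBP, and 0 had a negative fold change, and the summed level of the list was 1470 and 1510 TPM in NC against 2868 and 2994 TPM after knockdown. The part of this difference in the levels of the spindle and kinesin genes was not tested.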

How the data were processed

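RNA from 2 NC and 2 sh-ANP32B samples of Kasumi-1 was sequenced by the authors, who aligned the reads to hg38 with HISAT2 (2.0.5 in the submitters' processing notes). The deposited values are TPM, made by the authors with a program, annotation and filters not given in the sources used here. The labels name a TruSeq RNA kit and total RNA. The unit was read from the values, which sum to between 997812 and 998314 per sample. Depth is unknown, so no counting interval was computed. Of the 18567 gene IDs, 16986 were found in GENCODE v44 (hg38), which gave symbols, positions and GC content.

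A gene was tested if 2 or more samples reached 1 TPM. The test was run on log2(TPM + 1), a scale that understates the change of low genes, with limma and its abundance trend over the 4 samples (version 3.58.1 in R 4.3.3), two-sided, with Benjamini-Hochberg adjustment over all 16817 genes. DESeq2, which the study used, works on counts and could not be applied to TPM. The members, gene lists and tests were chosen with earlier results of these data known. Values per sample are given for the members with an adjusted p under 0.05, for the most abundant member and that with the smallest absolute fold change in each role group and for PLK1. Genes of the other cell division lists are named where their adjusted p was under 0.05, at most 5 per list, and MKI67 was named by rule. UBE2S and the marker genes other than MKI67 were named after their values were seen. GC correction was a loess fit in each sample (span 0.3) over 15427 genes with GC content, 91.7% of those tested. The split of the members by GC content was made after seeing the data. Other scalings, filters, pseudocount, variance models, the replicate block and leaving out each sample were tried. No value above 0 was identical between replicates. Tables and figures were made in Python 3.11.15 with pandas 2.3.3, numpy 2.4.6, and matplotlib 3.10.9.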

Additional observations from a re-analysis of the deposited data

How the results depend on the processing

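ANP32B kept its direction and its call in all alternatives except limma without the abundance trend, where the log2 fold change was still -3.04 and the adjusted p 0.0929. It ranged from -3.20 to -2.88 when each sample was left out. The 43 members with a negative fold change were negative under every scaling, filter, pseudocount, variance model and GC correction tried, and 40 were without sh-ANP32B replicate 2.

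The number of members called lower by limma, 3 as reported (199 of all 16817 genes), was 1 with a pseudocount of 0.1 (167 of 16817 genes). It was 6 with at least 1 TPM in all 4 samples (298 of 14476 genes) and 5 with median-of-ratios scaling (284 of 16817 genes). After GC correction it was 33 (1024 of 15427 genes), and with robust variance 1 (183 of 16817 genes). Without the abundance trend it was 0, and 0 of all 16817 genes were called lower. In that fit 24 members (against 7.998% of all genes) had an unadjusted p under 0.05. By the study's cutoffs, taken on the unadjusted limma p, it was 21. It ranged from 0 to 39 when each sample was left out. The number called higher was 0 in every fit, also at an unadjusted p under 0.05. The members' median log2 fold change of -0.50 became -0.59 with median-of-ratios scaling, -0.56 after quantile normalization, -0.56 after upper-quartile scaling, -0.55 without mitochondrial genes and -0.47 after GC correction, and ranged from -0.58 to -0.44 when each sample was left out. The members with sh-ANP32B below NC in all samples numbered 40 to 43 when each sample was left out. Such separation is easier with 1 sample in a group. Over all genes, sh-ANP32B replicate 1 alone lay below both NC samples in 34.2% and replicate 2 alone in 36.1%, against 21.4% for both. ASPM ranged from -0.58 to 0.0086 and ANLN from -0.35 to 0.048, the highest values without sh-ANP32B replicate 2. The cause of these shifts was not tested.

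The groups share replicate numbers, but no source says that equal numbers were handled together, and their deviations from the group means did not run together across genes (Pearson r -0.0925, Spearman rho -0.168). With the replicate block 9 members were called lower (491 of all 16817 genes), and 28 with the replicate block and GC correction (870 of 15427 genes), where the median was -0.47. The block leaves 1 residual degree of freedom. Without GC correction its SE was 0.210 for both PLK1 and KIF2C, set mostly by the abundance trend, so these calls say little about pairing. The 3 called members were among the 9 and among the 28.

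For the 15 members with values per sample, 194 of 240 alternative fits kept direction and side of the threshold, 31 passed it where the reported fit did not, 13 lost it and 2 changed sign. Only ESPL1, KNSTRN and KIF4A had a call to lose, so all 13 losses were theirs. Most of the 194 were fits of members that stayed uncalled. Depth is unknown, and 2 samples per group limit the precision of every value.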

Other observations

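Other parts of the division machinery were looked at in 4 further lists. Of 18 plus-end and constitutive spindle factors tested, 12 had a negative log2 fold change, 2 were called lower and 0 higher, and the median was -0.20. The 2 were STMN1, a protein that keeps tubulin from polymerising, at 986 and 991 TPM in NC against 597 and 471 TPM after knockdown (log2 fold change -0.90, adjusted limma p 0.0411), and the tubulin TUBB, at 225 and 218 TPM in NC against 145 and 141 TPM after knockdown (log2 fold change -0.63, adjusted limma p 0.0476). TUBB has close relatives with which it may share reads.

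Of 22 contractile ring and abscission factors tested, 8 had a negative fold change, 1 was called lower and 0 higher, and the median was 0.055. The 1 was the formin DIAPH3, at 52.2 and 60.5 TPM in NC against 32.5 and 23.3 TPM after knockdown (log2 fold change -1.004, adjusted limma p 0.0496). Of 17 gamma-tubulin ring and augmin subunits, 14 had a negative fold change, with a median of -0.18, and of 15 centrosome and centriole factors 12 did, with a median of -0.14. Limma called 0 genes of either list. At an unadjusted p under 0.05, 4 of each were lower (against 8.72% of all genes) and 2 and 0 higher. After GC correction 4 genes of each were called lower (against 6.64% of all genes). At the same setting 2 and 0 were called higher, against 1754 of all 15427 genes.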
